A study of Homo sapiens with 40 samples.

Results

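The nuclear genes for the subunits and some assembly factors of the mitochondrial respiratory chain and ATP synthase were followed in A2058 cells, an established human melanoma line, under 3 inhibitors of phosphoinositide 3-kinase (PI3K). Members were taken by symbol. Symbols starting with NDUF gave complex I with its NDUFAF assembly factors, SDHA to SDHD and the SDHAF genes gave complex II, and UQCR gave complex III. Symbols starting with COX4I, COX5, COX6, COX7 or COX8 gave complex IV, and ATP5 gave ATP synthase. This rule found 89 of the 19775 genes that had a probe set with 1 symbol, and it used no measured value. Of the 89, 83 lay above the filter on dim genes and were tested among 11865 genes: 33 of 33 complex I subunits, 8 of 8 complex I assembly factors, 3 of 3 complex II subunits, 4 of 4 complex II assembly factors, 6 of 6 complex III subunits, 11 of 17 complex IV subunits and 18 of 18 ATP synthase genes. The filter was set on the mean over all 40 arrays. Another 11 protein-coding genes with such symbols were not analysed here. The mitochondrially encoded subunits were outside the rule.

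The respiratory chain lies in the inner mitochondrial membrane. Complex I takes electrons from NADH and complex II takes them from succinate, both pass them to coenzyme Q, complex III hands them to cytochrome c, and complex IV gives them to oxygen. Complexes I, III and IV pump protons, and ATP synthase lets the protons return and makes ATP. Assembly factors build the complexes but are not part of the finished enzymes. PI3K acts through AKT and the kinase mTOR on cell growth, nutrient uptake and glycolysis, and melanomas differ in how far they rely on respiration.

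All cells were grown in high-glucose medium with serum, pyruvate and glutamine, and each culture was treated once, for 24 h. The 10 groups were the solvent DMSO, BKM120 at IC30, IC50 and IC90, BEZ235 at IC50, IC90 and max, and GDC0941 (also spelled GCD0941 in the labels) at IC50, IC90 and max. For BKM120 the IC90 was also the max. The labels gave these inhibitory levels and no molar concentration, so equal levels of different compounds are matched by name only. BEZ235 is also known as an inhibitor of mTOR. Each group had 4 samples described as biological replicates of this single line, so the p-values measure the spread between these samples. In such bulk samples, fewer cells of a kind and less RNA per cell cannot be told apart.

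Each sample gave 1 Affymetrix array scaled by MAS5, and values here are log2(signal + 16) of the brightest probe set of a gene. Changes are differences of group means on that scale, which understates the change of dim genes. Arrays of a group correlated at 0.969 or above. The third replicate of BEZ235 at IC50 stood apart in RNA quality, with a 3'/5' signal ratio of 3.44 for GAPDH and 27.2 for actin, against 1.05 to 1.26 and 1.58 to 2.33 on the other arrays. The main counts of called members for that group are therefore given with and without it. Changes of single members in that group include it unless stated. The second DMSO array had a median signal of 15.3 against 12.1 to 12.9 on the other DMSO arrays, and its members lay 0.08 below their group mean. The fourth array of BKM120 at IC30 had a median signal of 14.7 against 12.2 to 12.3, and its members lay 0.09 below their group mean. The first array of BKM120 at IC50 also had a median signal of 14.7, against 12.5 to 12.6 on the others of its group. Its members lay 0.02 below their group mean. The members lay 0.13 above their group mean on the third array of GDC0941 at max, the largest such deviation of the 40 arrays, 0.12 above it on the degraded array and 0.08 below it on the fourth array of BEZ235 at IC50. All 4 arrays of BKM120 at IC90 had a median signal of 15.1 to 15.7. The part of these array properties in the results was not tested beyond leaving arrays out. The melanocyte markers gave a summed signal of 5108 to 8482, against 2.6 to 13.8 for leukocyte, 4.9 to 15.1 for epithelial, 12.0 to 32.1 for endothelial and 11.9 to 31.8 for muscle markers. The fibroblast list gave 788.9 to 1619.4, nearly all of it from LUM, which melanoma cells can express.

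The members moved by small amounts, mostly under 0.5 on the log2 scale, and not as 1 block. The lowest level of each compound carried more rises than falls, as all tested genes did, except that quantile normalization gave 13 of each for BEZ235. The highest levels carried as many falls as rises or more, where all tested genes had more rises in the values as deposited. NDUFAF4, a complex I assembly factor, was the only member called in all 9 treatments, and it fell in each. That 1 gene is 1.2% of the members, near the 0.995% of all tested genes that fell in all 9. No member rose in all 9, where 2.73% of all genes did. ATP5PD, a stator subunit of ATP synthase, rose in 8 of 9. A gene was called where the adjusted p (limma, Benjamini-Hochberg within a comparison) was under 0.05, and "rose" and "fell" are used of called genes only. Of the 182 changes of single members with a call given here, 51 had an adjusted p of 0.01 or more, and 50 of these lost the call when 1 array of the groups compared was left out. Among the 131 with a smaller adjusted p, 8 did: COX5B at BKM120 IC30, NDUFB3 at BKM120 IC50, COX6B1, NDUFAF5, NDUFV3, SDHAF4 and UQCRC1 at BEZ235 IC50, and SDHAF4 at GDC0941 max.

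With BKM120 at IC30, 17 of the 83 members rose and 1 fell, where 13.2% of all tested genes rose and 8.15% fell (21.3% in either direction). At IC50, 9 rose and 1 fell (12.6% and 7.24% of all genes, 19.8% in all), and at IC90 3 rose and 13 fell (17.2% and 17%, 34.2% in all). The median change of the members went from 0.14 at IC30 through 0.07 at IC50 to 0.03 at IC90, against 0.02, 0.03 and -0.002 for all genes. Under quantile normalization the members' medians were 0.08, 0.04 and -0.03 against 0.02, 0.02 and -0.02, so the sign at IC90 turned. The first of these counts leaned on single arrays, since leaving out 1 array at a time gave 6 to 29 calls: 6 without the second DMSO array, 7 and 11 without the first and the third IC30 array, and 29 without the fourth. Without the degraded BEZ235 array in the shared estimate of the spread, 32 members were called at IC30. For IC50 the calls came to 6 without the second DMSO array, and to 5 and 6 without the third and the fourth IC50 array.

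BEZ235 gave the most calls. At IC50, 39 members rose and 8 fell (26.6% and 18.9% of all genes, 45.5% in all), and without the array of poor RNA quality 27 rose and 10 fell (24.1% and 20.2%). Quantile normalization of the arrays left 13 rises and 13 falls there, so the excess of rises at this level was not kept under that scaling. At IC90, 12 rose and 18 fell (31.1% and 23.9%, 55% in all), and at max 12 rose and 23 fell (32.8% and 24.9%, 57.7% in all). Quantile normalization gave 8 rises with 30 falls at IC90 and 9 with 32 at max. The members' medians were 0.14, 0.03 and -0.01 over the 3 levels, against 0.04 for all genes at each. Under quantile normalization they were 0.0076, -0.04 and -0.06 against 0.04, 0.03 and 0.03, below all genes at each level.

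With GDC0941 at IC50, 9 members rose and 1 fell (9.94% and 6.19% of all genes, 16.1% in all). At IC90, 6 rose and 3 fell (15.4% and 9.83%, 25.3% in all), and quantile normalization gave 12 and 3. At max, 10 rose and 10 fell (25.5% and 18.2%, 43.7% in all). The median change was 0.11, 0.09 and 0.04, against 0.01, 0.02 and 0.03 for all genes. Under quantile normalization it was 0.07, 0.04 and -0.0022 against 0.01, 0.01 and 0.02, so the sign at max turned. Leaving out the second DMSO array left 1 call at IC50 and 11 at max, and leaving out the second or the fourth IC50 array left 5 and 4 calls at IC50. At IC90 the count rose to 16 without the third DMSO array. Without the degraded BEZ235 array in the estimate of the spread, 19 members were called at IC50 and 19 at IC90. All 9 comparisons share the same 4 DMSO arrays, so they are not independent of each other.

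**Figure D1:**
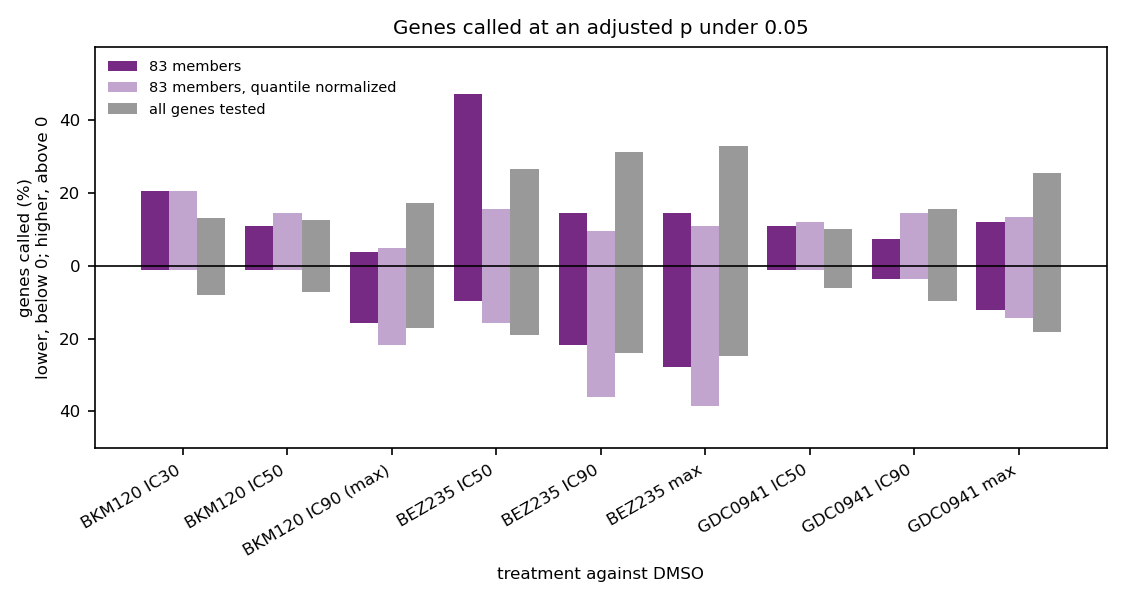
Percent of the 83 tested members (dark bars, and pale bars after quantile normalization) and of all 11865 tested genes (grey) that rose or fell against DMSO in each of the 9 treatments. At the lowest level of BKM120, BEZ235 and GDC0941, 17, 39 and 9 of the 83 rose (17, 13 and 10 after quantile normalization), and at the highest level 3, 12 and 10 rose.

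Over the 9 treatments, 16 tested members (19.3%, against 17.3% of all genes) were called in none, among them COX4I1, UQCRC2, SDHD, NDUFS4 and ATP5F1D. Another 6 (7.23%, against 9.79% of all genes) rose in one treatment and fell in another: NDUFB3, NDUFB6, NDUFAF6, SDHAF1, UQCRC1 and UQCR11. At least 6 rises were seen for 3 of 83 members (3.61%, against 11.1% of all genes). At least 6 falls were seen for 1 member (1.2%, against 6.73% of all genes).

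**Figure D2:**
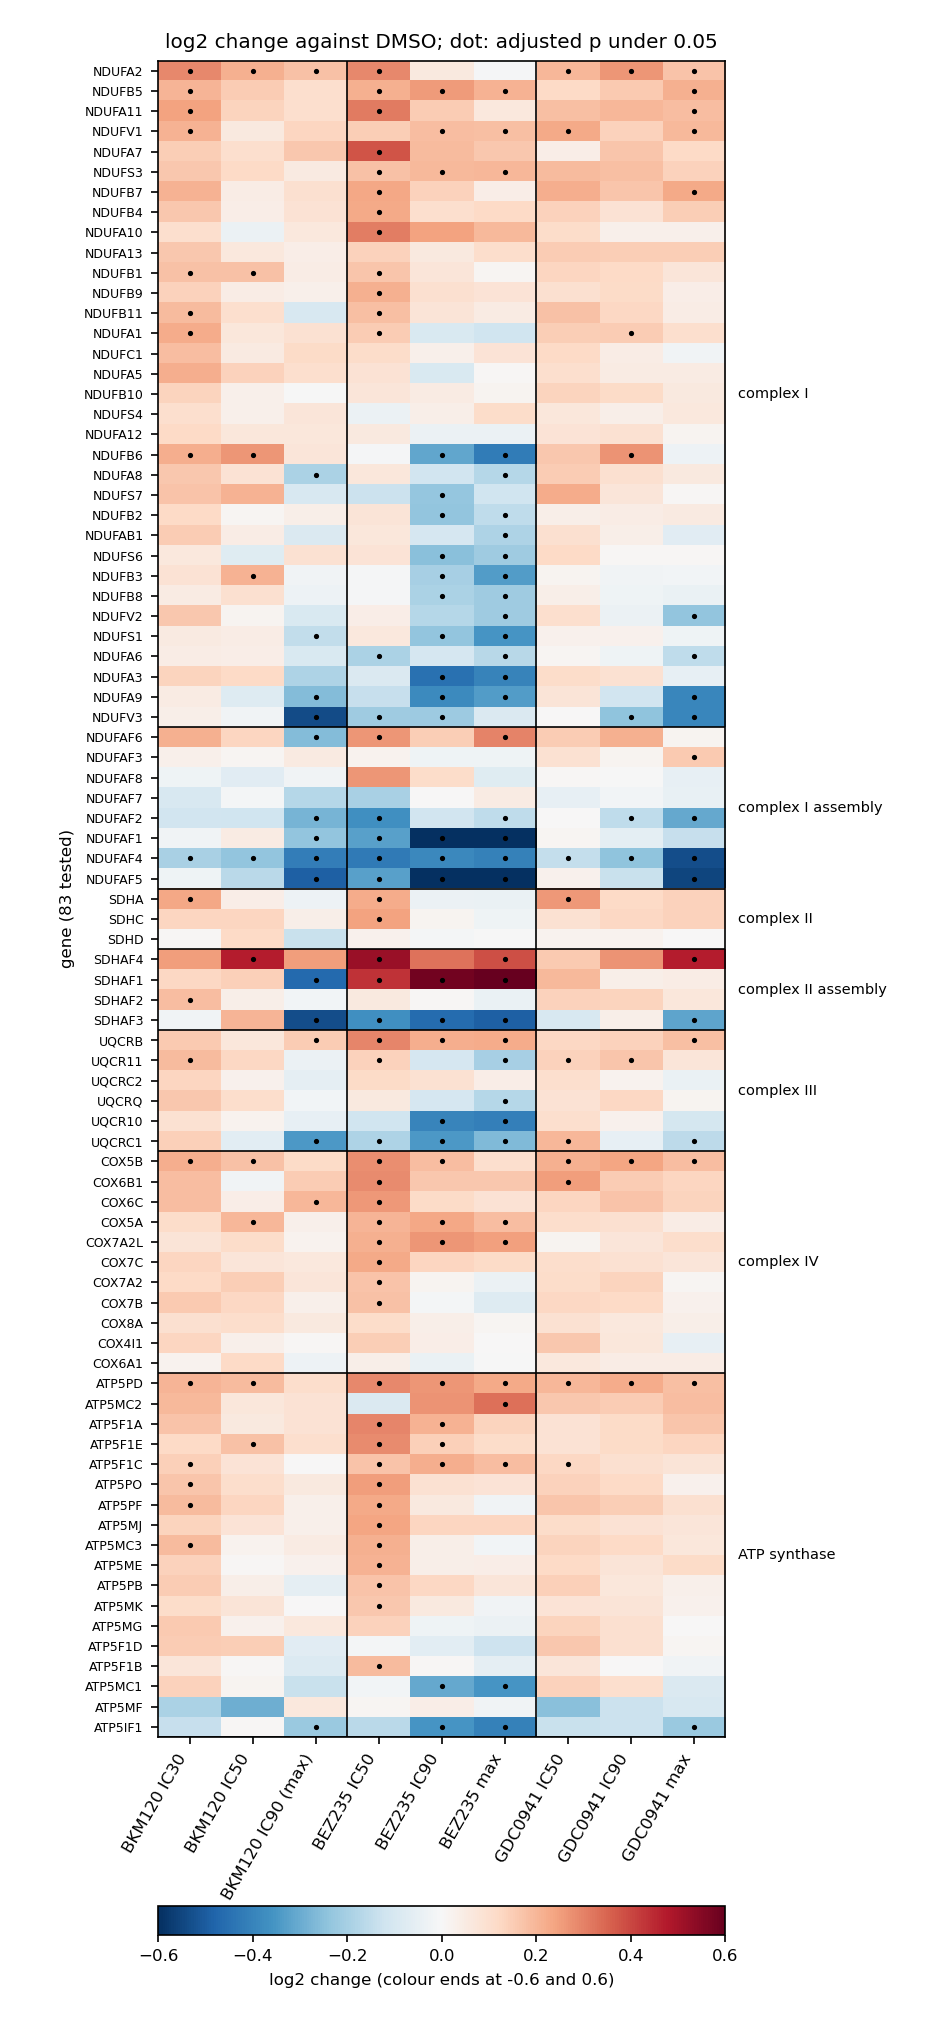
Log2 change against DMSO (colour) of every tested member (rows, by complex) in the 9 treatments (columns). The complex I assembly factors include the strongest falls, with NDUFAF5 at -1.01 under BEZ235 at IC90, and ATP5PD is positive in all 9 columns.

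The starts of 5 members are shown as examples of genes that fell and genes that rose, from complex I, its assembly factors, complex IV and ATP synthase. They were chosen after their values were seen, and other members had changes as large. Each sequence runs from 180 bases before to 20 bases after the first base of the transcript, 5' to 3' on the gene's strand (RefSeq, GRCh38.p14), with matches to the searched motifs in capitals. Motifs were searched on both strands: GCGCATGC (core of the NRF1 site), CCGGAAG (ETS, the family of GABPA), AAGATGGC (YY1), and the E-boxes CACGTG and CATGTG. NDUFAF4 lies on chromosome 6 (chr6:96897872-96898071, minus strand), NDUFAF5 on 20 (chr20:13784848-13785047, plus), NDUFA9 on 12 (chr12:4648934-4649133, plus), ATP5PD on 17 (chr17:75046950-75047149, minus) and COX5B on 2 (chr2:97645882-97646081, plus).
NDUFAF4: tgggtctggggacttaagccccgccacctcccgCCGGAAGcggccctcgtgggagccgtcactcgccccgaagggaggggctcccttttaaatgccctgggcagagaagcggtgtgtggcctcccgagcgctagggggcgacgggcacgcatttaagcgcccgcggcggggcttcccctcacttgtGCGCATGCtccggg
NDUFAF5: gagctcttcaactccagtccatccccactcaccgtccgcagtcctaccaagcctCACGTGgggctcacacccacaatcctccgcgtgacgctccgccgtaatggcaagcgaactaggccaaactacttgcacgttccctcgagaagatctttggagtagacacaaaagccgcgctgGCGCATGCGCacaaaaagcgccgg
NDUFA9: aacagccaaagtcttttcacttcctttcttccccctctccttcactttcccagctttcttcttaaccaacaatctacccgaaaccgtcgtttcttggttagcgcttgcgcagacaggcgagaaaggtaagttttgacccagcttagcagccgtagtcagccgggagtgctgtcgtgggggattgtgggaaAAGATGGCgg
ATP5PD: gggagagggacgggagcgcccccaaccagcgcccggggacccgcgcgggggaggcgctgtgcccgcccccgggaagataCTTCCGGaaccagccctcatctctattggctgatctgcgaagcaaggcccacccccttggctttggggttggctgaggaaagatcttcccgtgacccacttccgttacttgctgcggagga
COX5B: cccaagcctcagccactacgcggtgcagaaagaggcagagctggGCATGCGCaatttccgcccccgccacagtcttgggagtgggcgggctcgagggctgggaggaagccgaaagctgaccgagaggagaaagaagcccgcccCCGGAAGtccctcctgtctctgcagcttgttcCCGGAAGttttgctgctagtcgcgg

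NDUFAF4, which fell under every treatment, held CCGGAAG at -147 and GCGCATGC at 6, counted in bases from the first base of the transcript. NDUFAF5, with the largest falls, held overlapping GCGCATGC matches on both strands at -4 and -2 and CACGTG at -126. NDUFA9, which fell at the highest levels, held AAGATGGC at 10. ATP5PD, which rose in 8 treatments, held the ETS letters at -101, and COX5B, which rose in 7, held GCGCATGC on the other strand at -136 and CCGGAAG at -37 and -5. The windows of a falling and of a rising gene thus shared the same kinds of letters. Over windows of 300 bases, GCGCATGC was found in 19.7% of the 66 members with exactly 1 window and in 4.42% of 11785 protein-coding genes. CCGGAAG was in 28.8% against 15.1%, AAGATGGC in 13.6% against 4.22%, CACGTG in 12.1% against 8.86% and CATGTG in 3.03% against 8.49%. A match is a description of letters only.

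Most complex I subunits were not called in any one treatment. The shares called, here and for the other complexes, can be read against those of all genes given above. Of 33, 8 rose and none fell with BKM120 at IC30, 4 and 0 at IC50, and 1 and 4 at IC90. With BEZ235, 12 rose and 2 fell at IC50 (10 and 2 without the degraded array), 3 and 10 at IC90, and 3 and 12 at max. With GDC0941, 2 rose and none fell at IC50, 3 and 1 at IC90, and 5 and 4 at max. In the values as deposited, rises were a larger share than among all genes only at BKM120 IC30 (13.2% of all genes) and BEZ235 IC50 (26.6%). In the other treatments they were a smaller share. Falls were a larger share only with BEZ235 at IC90 (23.9% of all genes) and max (24.9%).

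NDUFS1, the large iron-sulfur subunit of the electron input arm, read 9.47, 9.59, 9.52 and 9.52 under DMSO. It read 9.37, 9.29, 9.21 and 9.27 with BEZ235 at IC90 and 9.11, 9.22, 9.18 and 9.16 at max. Both treated groups lay wholly below DMSO. The changes were -0.24 (SE 0.048, limma adjusted p = 6.59e-05) and -0.36 (adjusted p = 6e-08), and BKM120 at IC90 gave -0.15 (adjusted p = 0.0156). Its partner NDUFV1, which holds the flavin that accepts electrons from NADH, went the other way. It read 10.22, 10.06, 10.18 and 10.21 under DMSO and 10.38, 10.43, 10.28 and 10.31 with BEZ235 at IC90. The groups did not overlap, at 0.18 (SE 0.064, limma adjusted p = 0.0139), and NDUFV1 also rose with BEZ235 at max (0.18), GDC0941 at IC50 (0.23) and max (0.20) and BKM120 at IC30 (0.21). The NDUFV1 calls were lost for BKM120 at IC30, BEZ235 at both levels and GDC0941 at both levels when the second DMSO array was left out.

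NDUFA9, an accessory subunit of the arm that binds coenzyme Q, read 10.09, 10.08, 10.14 and 10.18 under DMSO. It read 9.77, 9.61, 9.84 and 9.70 with GDC0941 at max, 9.63, 9.81, 9.78 and 9.74 with BEZ235 at IC90, and 9.85, 9.85, 9.81 and 9.94 with BKM120 at IC90. All 12 treated values lay below every DMSO value. The changes were -0.39 for GDC0941 (SE 0.069, limma adjusted p = 1.62e-05), -0.38 for BEZ235 (adjusted p = 1.5e-05) and -0.26 for BKM120 (adjusted p = 0.00331). NDUFV3, a small subunit of the NADH-binding arm, read 9.74, 9.56, 9.56 and 9.54 under DMSO and 8.98, 8.97, 9.13 and 9.17 with BKM120 at IC90. The fall of 0.53 (SE 0.066, limma adjusted p = 3.58e-08) left no overlap, and NDUFV3 also fell with GDC0941 at IC90 (-0.24) and max (-0.39) and with BEZ235 at IC50 (-0.21) and IC90 (-0.22). Its probe sets disagreed in direction in the last of these.

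Other accessory subunits fell with BEZ235 at its higher levels. NDUFB6, of the membrane arm, read 9.83, 9.68, 10.13 and 10.01 under DMSO and 9.40, 9.53, 9.52 and 9.51 with BEZ235 at max, with no overlap and a change of -0.42 (SE 0.069, limma adjusted p = 2.67e-06). The same gene rose with BKM120 at IC30 (0.22) and IC50 (0.27) and with GDC0941 at IC90 (0.27). The mean over its probe sets gave no call in those 3 comparisons or with BEZ235 at max, where the value was smaller. NDUFA3 read 8.26, 8.42, 8.45 and 8.44 under DMSO and 8.02, 7.95, 7.92 and 7.89 with BEZ235 at IC90, a fall of 0.45 (SE 0.078, limma adjusted p = 8.23e-06) with no overlap. It fell by 0.40 at max. NDUFB3 fell by 0.20 and 0.34 at these levels and rose by 0.21 with BKM120 at IC50.

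Among the subunits that rose, NDUFA2 did so in 7 of 9 treatments and NDUFB5 in 5. NDUFA2, an accessory subunit with a thioredoxin-like fold, read 10.10, 10.00, 10.26 and 10.13 under DMSO and 10.42, 10.41, 10.48 and 10.33 with BEZ235 at IC50. The groups did not overlap, at 0.29 (SE 0.061, limma adjusted p = 0.000254). It rose at all 3 levels of BKM120 (0.29, 0.21 and 0.18) and of GDC0941 (0.20, 0.26 and 0.17), but its probe sets disagreed in direction for BKM120 at IC30 and IC50, BEZ235 at IC50 and GDC0941 at max. The mean over its probe sets lost the call at all of these and at GDC0941 IC50 and BKM120 IC90, and turned the GDC0941 max value to -0.04. NDUFB5 rose by 0.21, 0.26 and 0.21 over the BEZ235 levels, by 0.20 with BKM120 at IC30 and by 0.21 with GDC0941 at max. NDUFS3, a core subunit, rose by 0.18, 0.20 and 0.20 with BEZ235, while a probe set shared between PTPMT1 and NDUFS3 went down by 0.31 at IC90 (adjusted p = 0.000162).

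The complex I assembly factors had more falls than rises in each of the 9 treatments. At BKM120 IC30 and IC50 and at GDC0941 IC50, though, NDUFAF4 was the only one called. Of 8, 5 fell and none rose with BKM120 at IC90. With BEZ235, 4 fell at IC50, 3 at IC90 and 4 at max, beside 1, 0 and 1 that rose, and without the degraded array 4 fell and 0 rose at IC50. With GDC0941, 1, 2 and 3 fell and 0, 0 and 1 rose. Of all tested genes, 8.15%, 7.24% and 17% fell over the BKM120 levels and 18.9%, 23.9% and 24.9% over the BEZ235 levels. With GDC0941 these shares were 6.19%, 9.83% and 18.2%. The mean log2 signal of the 8 genes on an array lay below all DMSO arrays in every array of BKM120 at IC90 (-0.23), BEZ235 at IC50, IC90 and max (-0.14, -0.25 and -0.24) and GDC0941 at max (-0.18).

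NDUFAF4 read 10.07, 10.09, 10.08 and 10.15 under DMSO. With BKM120 it read 9.87, 9.87, 10.02 and 9.84 at IC30, 9.91, 9.89, 9.86 and 9.78 at IC50, and 9.67, 9.74, 9.69 and 9.63 at IC90. With BEZ235 it read 9.75, 9.74, 9.48 and 9.71 at IC50, 9.71, 9.69, 9.68 and 9.76 at IC90, and 9.69, 9.67, 9.75 and 9.65 at max. The level went down over the BKM120 levels and was already at its low value at the lowest BEZ235 level. With GDC0941 it read 9.89, 10.01, 9.91 and 10.01 at IC50, 9.87, 9.80, 9.89 and 9.86 at IC90, and 9.55, 9.66, 9.54 and 9.51 at max. No treated value reached the DMSO values. The changes were -0.20, -0.24 and -0.41 with BKM120, -0.43, -0.39 and -0.41 with BEZ235, and -0.14, -0.24 and -0.53 with GDC0941, each with SE 0.051. The limma adjusted p ran from 7.43e-11 at GDC0941 max to 0.0484 at GDC0941 IC50. The last call was lost under 11 of 18 alternatives. The dimmer probe set of NDUFAF4 gave -0.31 with BKM120 at IC90, -0.41 with BEZ235 at max and -0.20 with GDC0941 at max, but 0.09 with GDC0941 at IC90.

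NDUFAF5, an arginine hydroxylase that acts on the complex I core subunit NDUFS7, had the largest change of any member against DMSO. It read 8.11, 8.13, 8.20 and 8.26 under DMSO, 7.19, 7.11, 7.28 and 7.09 with BEZ235 at IC90, and 7.27, 7.26, 7.32 and 7.18 at max. These 8 values lay far below DMSO, at -1.01 (SE 0.101, limma adjusted p = 1.29e-10) and -0.92 (adjusted p = 8.35e-10). At IC50 it read 7.70, 7.85, 8.34 and 7.51, and the high value was the degraded array. That change was -0.32 (limma adjusted p = 0.00905) with this array, -0.49 without it, and lost its call without the fourth array. NDUFAF5 read 7.64, 7.65, 7.75 and 7.71 with BKM120 at IC90 and 7.71, 7.56, 7.74 and 7.49 with GDC0941 at max. Both groups lay below DMSO, at -0.49 (limma adjusted p = 0.000217) and -0.55 (adjusted p = 2.89e-05). Both of its probe sets fell in these 5 treatments.

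NDUFAF1, a chaperone of an early membrane intermediate of complex I, read 8.10, 8.16, 8.28 and 8.18 under DMSO and 7.48, 7.37, 7.67 and 7.44 with BEZ235 at IC90. The groups did not overlap, at -0.69 (SE 0.071, limma adjusted p = 2.09e-10), and the changes at BEZ235 IC50 and max were -0.33 and -0.68. It fell by 0.24 with BKM120 at IC90, and with GDC0941 its 3 changes were 0.01, -0.06 and -0.14, none of them called. NDUFAF2 fell by 0.28 with BKM120 at IC90, by 0.37 and 0.15 with BEZ235 at IC50 and max, and by 0.15 and 0.31 with GDC0941 at IC90 and max. NDUFAF6 went both ways, reading 8.44, 8.39, 8.47 and 8.39 under DMSO, 8.76, 8.76, 8.66 and 8.68 with BEZ235 at max, and 8.18, 8.21, 8.20 and 8.06 with BKM120 at IC90. Neither group overlapped DMSO, at 0.30 (SE 0.088, limma adjusted p = 0.00423) and -0.26 (adjusted p = 0.0201). The BKM120 call of NDUFAF6 was lost in the mean over its probe sets and without the fourth IC90 array.

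**Figure D3:**
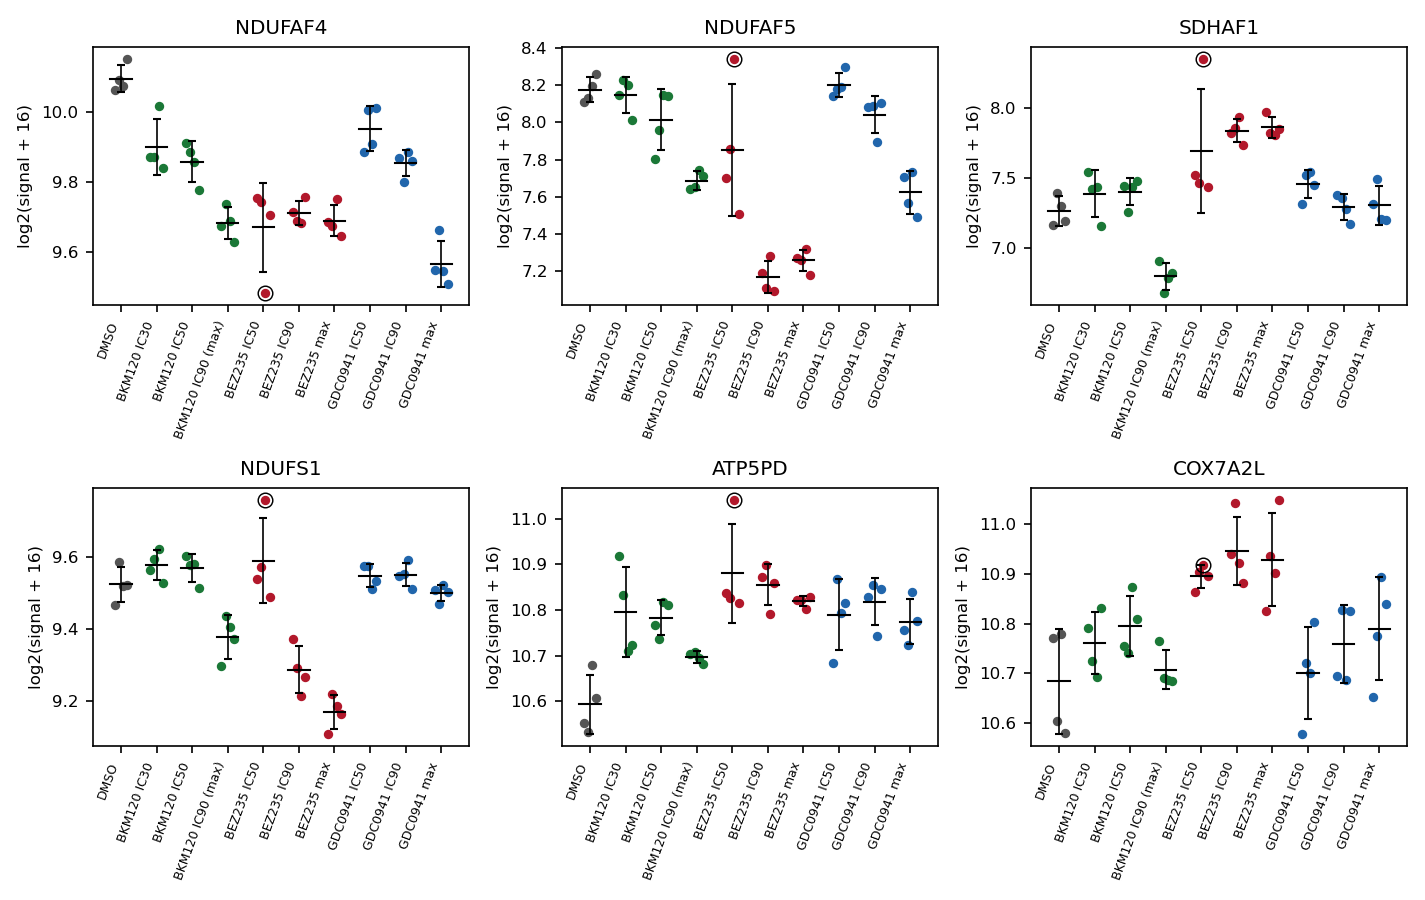
Log2(signal + 16) of 6 members on all 40 arrays by group, with bars for the group mean and SD and a circle around the degraded BEZ235 array. NDUFAF4 lies below DMSO in every treated group, NDUFAF5 reaches 7.09 under BEZ235 at IC90, and SDHAF1 lies above DMSO under BEZ235 and below it under BKM120 at IC90.

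The mean of the 3 measured complex II subunits lay above all DMSO arrays with BKM120 at IC30 (0.12) and GDC0941 at IC50 (0.12). It overlapped DMSO elsewhere. Of these 3, 1 rose with BKM120 at IC30, 2 with BEZ235 at IC50 (1 without the degraded array) and 1 with GDC0941 at IC50. In these treatments 13.2%, 26.6% and 9.94% of all genes rose. None of the 3 fell in any treatment. SDHA, the flavin subunit that oxidises succinate, read 10.14, 9.92, 10.18 and 10.10 under DMSO and 10.34, 10.31, 10.29 and 10.43 with GDC0941 at IC50. The groups did not overlap, at 0.26 (SE 0.086, limma adjusted p = 0.0345). SDHA also rose with BKM120 at IC30 (0.23) and BEZ235 at IC50 (0.22). All 3 SDHA calls were lost without the second or the fourth DMSO array, and the BEZ235 call also without the degraded array.

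The complex II assembly factors changed more, and not together. SDHAF1, needed for the iron-sulfur clusters of SDHB, read 7.16, 7.40, 7.30 and 7.19 under DMSO. It read 7.82, 7.86, 7.94 and 7.74 with BEZ235 at IC90 and 7.97, 7.83, 7.81 and 7.85 at max, all above DMSO. It read 6.91, 6.68, 6.79 and 6.82 with BKM120 at IC90, all below DMSO. The changes were 0.58 (SE 0.119, limma adjusted p = 9.68e-05) and 0.60 (adjusted p = 5.08e-05) with BEZ235 and -0.47 (adjusted p = 0.00229) with BKM120. At BEZ235 IC50 it read 7.52, 7.47, 8.36 and 7.44, where the degraded array was the highest, at 0.43 (limma adjusted p = 0.00348). With GDC0941 its changes of 0.19, 0.03 and 0.04 were not called. SDHAF3, which works with SDHAF1, fell instead in both settings. It read 9.15, 9.25, 9.16 and 9.32 under DMSO, 8.64, 8.95, 8.64 and 8.53 with BKM120 at IC90, and 8.49, 8.97, 8.63 and 8.82 with BEZ235 at max. No treated value reached DMSO, at -0.53 (SE 0.111, limma adjusted p = 0.000251) and -0.49 (adjusted p = 0.000291). SDHAF3 also fell by 0.37 and 0.46 at the lower BEZ235 levels and by 0.32 with GDC0941 at max. SDHAF4, a chaperone of SDHA, rose by 0.47 with BKM120 at IC50, 0.39 with BEZ235 at max and 0.47 with GDC0941 at max, at low signals of 5.50 to 6.10 under DMSO. All 3 calls were lost without the fourth DMSO array, and the first 2 also without other single arrays. Its rise of 0.52 with BEZ235 at IC50 was lost without the degraded array.

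Complex III split between its members. Of 6, 1 rose and none fell with BKM120 at IC30, none was called at IC50, and 1 rose and 1 fell at IC90. With BEZ235, 2 rose and 1 fell at IC50 (2 and 2 without the degraded array), 1 and 2 at IC90, and 1 and 4 at max. With GDC0941, 2 and 0, 1 and 0, and 1 and 1 were called at the 3 levels. Over the BKM120 levels 13.2%, 12.6% and 17.2% of all tested genes rose and 8.15%, 7.24% and 17% fell. For BEZ235 these shares were 26.6%, 31.1% and 32.8% and 18.9%, 23.9% and 24.9%. For GDC0941 they were 9.94%, 15.4% and 25.5% and 6.19%, 9.83% and 18.2%. The mean of the 6 genes lay below all DMSO arrays only with BEZ235 at max (-0.13).

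UQCRC1, a core protein of the matrix side, read 9.69, 9.48, 9.63 and 9.68 under DMSO. It read 9.23, 9.27, 9.27 and 9.34 with BKM120 at IC90, 9.26, 9.28, 9.30 and 9.27 with BEZ235 at IC90, and 9.83, 9.83, 9.76 and 9.86 with GDC0941 at IC50. The first 2 groups lay below DMSO and the last above it, at -0.34 (SE 0.058, limma adjusted p = 1.2e-05), -0.34 (adjusted p = 5e-06) and 0.20 (adjusted p = 0.0137). UQCRC1 fell by 0.19 and 0.27 with BEZ235 at IC50 and max and by 0.16 with GDC0941 at max. The UQCRC1 rise was lost without the second DMSO array and the fall at BEZ235 IC50 without the fourth BEZ235 array. UQCR10, a small subunit, read 10.04, 9.85, 10.07 and 9.95 under DMSO and 9.63, 9.54, 9.53 and 9.58 with BEZ235 at max. The groups did not overlap, at -0.41 (SE 0.062, limma adjusted p = 4.9e-07), and IC90 gave -0.40. UQCRB, which lines the coenzyme Q site, rose by 0.29, 0.22 and 0.22 over the BEZ235 levels and by 0.15 and 0.18 with BKM120 at IC90 and GDC0941 at max, but its probe sets disagreed in all 5, and their mean turned to -0.02 with BEZ235 at max and -0.06 with BKM120 at IC90. UQCR11 rose by 0.19 with BKM120 at IC30 and fell by 0.20 with BEZ235 at max.

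Complex IV had rises and no fall in each of the 9 treatments, although quantile normalization gave 2, 3 and 3 falls over the BEZ235 levels. Of 11 tested subunits, 1, 2 and 1 rose over the BKM120 levels, 8, 3 and 2 over the BEZ235 levels (5 at IC50 without the degraded array), and 2, 1 and 1 over the GDC0941 levels. Of all tested genes, 13.2%, 12.6% and 17.2% rose over the BKM120 levels and 26.6%, 31.1% and 32.8% over the BEZ235 levels. With GDC0941 these shares were 9.94%, 15.4% and 25.5%. Between 6.19% and 24.9% of all genes fell in a treatment. The mean of the 11 genes lay above all DMSO arrays with BEZ235 at IC50 (0.19) and overlapped DMSO elsewhere. The 6 subunits below the filter were tissue isoforms or testis forms (COX4I2, COX6A2, COX6B2, COX7A1, COX7B2 and COX8C), with DMSO means between 4.06 and 4.41, near the floor set by the added 16.

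COX5B, a nuclear subunit that carries zinc, read 11.12, 10.92, 11.22 and 11.11 under DMSO. It read 11.31, 11.39, 11.53 and 11.27 with BEZ235 at IC50 and 11.27, 11.41, 11.31 and 11.33 with GDC0941 at IC90. Both groups lay above DMSO, at 0.28 (SE 0.061, limma adjusted p = 0.000288) and 0.24 (adjusted p = 0.00349). COX5B also rose with BKM120 at IC30 (0.22) and IC50 (0.17), BEZ235 at IC90 (0.18) and GDC0941 at IC50 (0.22) and max (0.19), and these 5 calls were lost without the second DMSO array. COX7A2L, which joins complexes III and IV into supercomplexes, was called at all 3 levels of BEZ235 and in no other treatment. It read 10.77, 10.60, 10.78 and 10.58 under DMSO, 10.86, 10.90, 10.92 and 10.90 at BEZ235 IC50, 10.94, 11.04, 10.92 and 10.88 at IC90, and 10.83, 10.94, 10.90 and 11.05 at max. All 12 values lay above DMSO, at 0.21, 0.26 and 0.24 (SE 0.055, limma adjusted p = 0.00215, 0.000122 and 0.000273), and the difference from the other compounds at IC90 is tested further on. COX5A rose by 0.20, 0.23 and 0.19 with BEZ235 and by 0.20 with BKM120 at IC50, with probe sets that disagreed at BEZ235 IC50 and max. Quantile normalization turned its BEZ235 IC50 value to -0.07. COX4I1, the regulatory subunit that binds ATP, was called in no treatment, with changes of -0.05 to 0.16.

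ATP synthase genes had most calls at BEZ235 IC50, but quantile normalization left 1 rise there and gave 1 rise with 5 falls at BEZ235 IC90 and 2 with 6 at max. Of 18, 5 rose and none fell with BKM120 at IC30, 2 and 0 at IC50, and 0 and 1 at IC90. With BEZ235, 12 rose and none fell at IC50 (8 and 1 without the degraded array), 4 and 2 at IC90, and 3 and 2 at max. With GDC0941, 2 and 0, 1 and 0, and 1 and 1 were called. Of all tested genes, 13.2%, 12.6% and 17.2% rose and 8.15%, 7.24% and 17% fell over the BKM120 levels. Over the BEZ235 levels 26.6%, 31.1% and 32.8% rose and 18.9%, 23.9% and 24.9% fell. Over the GDC0941 levels 9.94%, 15.4% and 25.5% rose and 6.19%, 9.83% and 18.2% fell.

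ATP5PD read 10.55, 10.53, 10.68 and 10.61 under DMSO. It read 10.92, 10.83, 10.71 and 10.72 with BKM120 at IC30, 10.84, 10.83, 11.04 and 10.82 with BEZ235 at IC50, and 10.83, 10.85, 10.74 and 10.85 with GDC0941 at IC90. In each of the 9 treatments all values lay above the DMSO values. The changes were 0.20, 0.19 and 0.10 with BKM120, 0.29, 0.26 and 0.23 with BEZ235, and 0.20, 0.22 and 0.18 with GDC0941 (SE 0.048), and the limma adjusted p ran from 8.32e-06 at BEZ235 IC50 to 0.0923 at BKM120 IC90, the one value not called. The mean over its probe sets was -0.01 with BKM120 at IC50 and lost the call with BKM120 at IC30, BEZ235 at IC50 and GDC0941 at IC50 and IC90.

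ATP5F1A and ATP5F1B, the alpha and beta subunits of the catalytic head, rose with BEZ235 at IC50 by 0.30 (limma adjusted p = 0.00355) and 0.19 (adjusted p = 0.0226), and ATP5F1A also at IC90 (0.21). The ATP5F1B call was lost without the degraded array, which read 11.58 against 11.06 to 11.12. ATP5F1C, the central shaft, rose by 0.17, 0.22 and 0.18 with BEZ235, 0.14 with BKM120 at IC30 and 0.13 with GDC0941 at IC50, but rested on a probe set named as open to cross-hybridisation. With such probe sets used last, ATP5F1C gave -0.28 with BKM120 at IC30, -0.31 with BEZ235 at IC50 and -0.27 with GDC0941 at IC50, none of them called. ATP5IF1, the inhibitor that stops ATP synthase from running backwards, read 8.99, 9.16, 8.95 and 8.84 under DMSO and 8.38, 8.67, 8.65 and 8.61 with BEZ235 at max. The groups did not overlap, at -0.41 (SE 0.085, limma adjusted p = 0.000109), and ATP5IF1 also fell with BEZ235 at IC90 (-0.35), BKM120 at IC90 (-0.22) and GDC0941 at max (-0.22). The last 2 calls were each lost without the first or the second DMSO array. Of the 3 genes for the c ring, ATP5MC1 fell by 0.31 and 0.35 with BEZ235 at IC90 and max, while ATP5MC2 rose by 0.33 at max, and ATP5MC3 rose by 0.19 and 0.21 with BKM120 at IC30 and BEZ235 at IC50. The ATP5MC3 values turned to -0.08 under quantile normalization at BEZ235 IC50, and the BKM120 call (adjusted p = 0.0498) was lost under 12 of 18 alternatives.

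**Figure D4:**
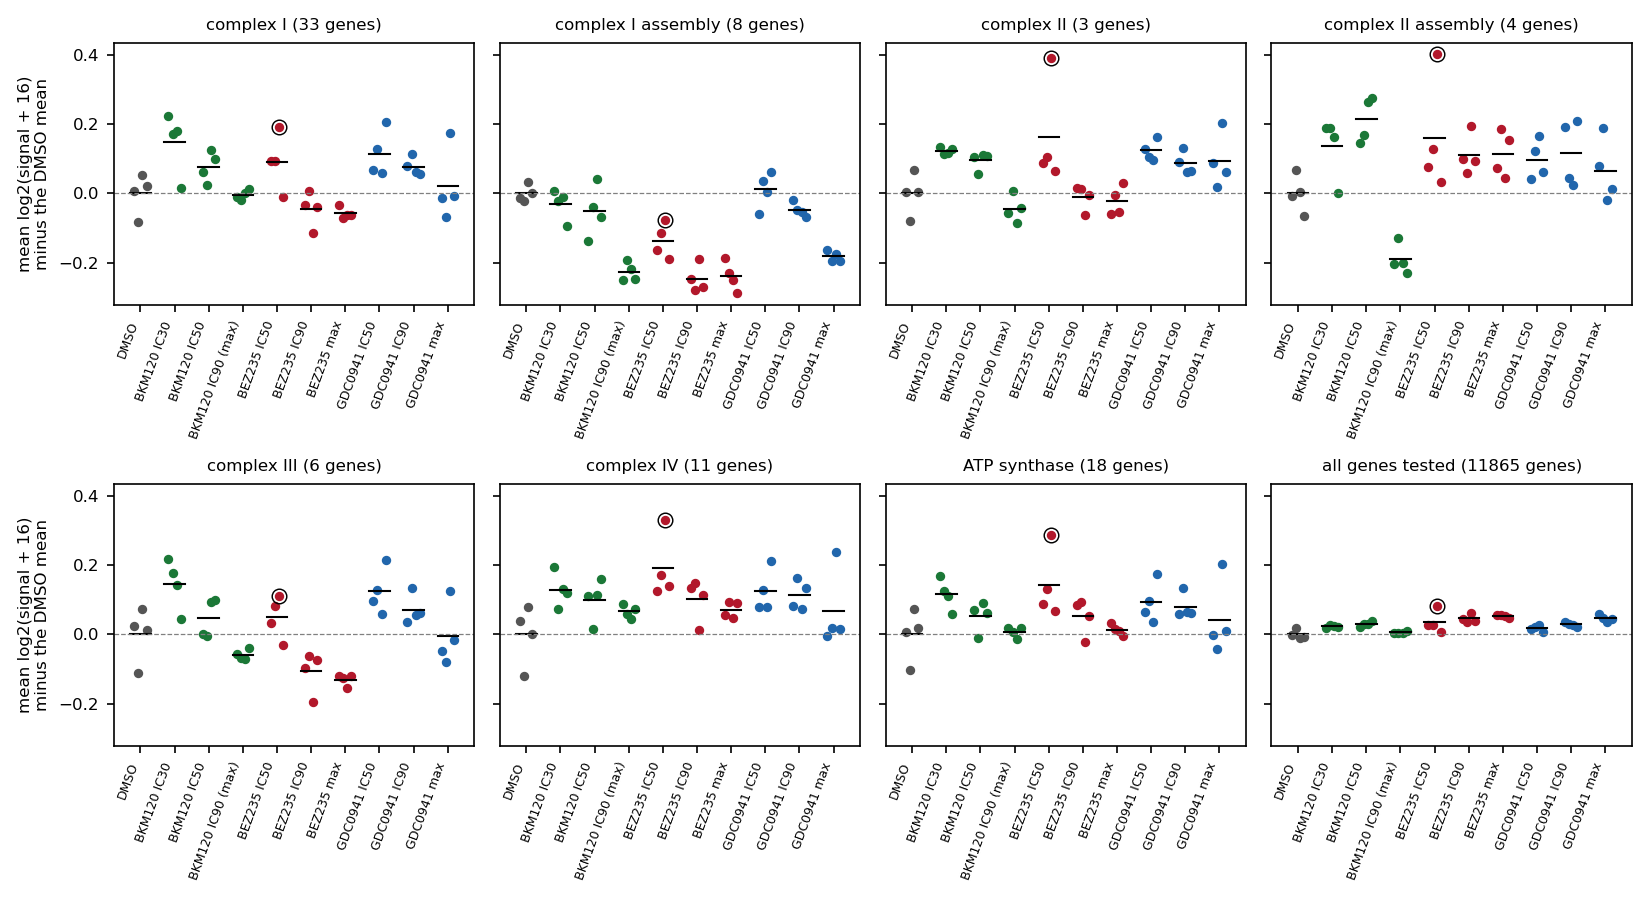
Mean log2 signal of each role group and of all tested genes on each array, minus the DMSO mean, with a line for the group mean and a circle around the degraded BEZ235 array. The complex I assembly factors reach -0.25 under BEZ235 at IC90. Complex IV, ATP synthase and all tested genes each stay above 0 on average in all 9 treatments.

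The highest level of each compound was compared with its lowest, which needs no DMSO array. With BKM120, none of the 83 members rose from IC30 to IC90 and 28 fell, where 14.3% of all genes rose and 19.7% fell (34% in either direction). With BEZ235, 4 rose and 35 fell from IC50 to max (20.2% and 18.9%, 39.1% in all), and 4 and 24 without the degraded array (22.2% and 17.2%). With GDC0941, none rose and 14 fell (16.3% and 13.3%, 29.6% in all). The median change was -0.11, -0.13 and -0.06, against -0.03, 0.00 and 0.02 for all genes. Leaving out single arrays gave 7 to 22 calls for GDC0941: 7 without the fourth IC50 array, 9 and 22 without the first and the third max array. The complex I subunits gave 10, 15 and 6 of these falls, and the complex I assembly factors gave 5, 3 and 3. Complex IV gave 0, 3 and 1.

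**Figure D5:**
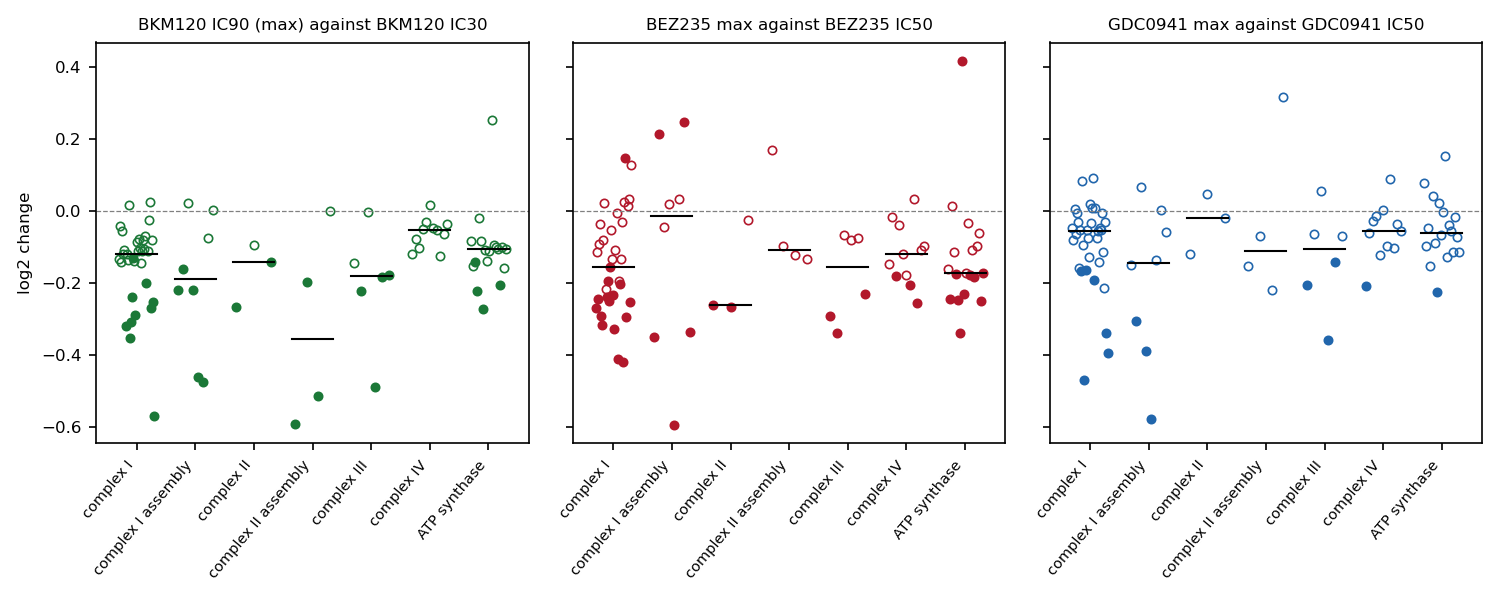
Log2 change from the lowest to the highest level of each compound for every tested member by role group, with filled points for called genes and a line at the median. Nearly all points of BKM120 lie below 0, with only 6 of 83 above it.

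NDUFAF5 fell between the levels of each compound, by 0.46 with BKM120 (SE 0.101, limma adjusted p = 0.000428), 0.59 with BEZ235 (adjusted p = 1.3e-05) and 0.58 with GDC0941 (adjusted p = 3.29e-05). The BEZ235 fall of NDUFAF5 was larger for including the degraded IC50 array, the highest of its group at 8.34. UQCRC1 fell by 0.49 with BKM120 (limma adjusted p = 1.47e-08) and 0.36 with GDC0941 (adjusted p = 1.08e-05), and NDUFV3 fell by 0.57 and 0.39 in the same comparisons. With BKM120, SDHAF1 fell by 0.59, NDUFAF6 by 0.47 and SDHA by 0.27. With BEZ235, NDUFS1 fell by 0.42 (limma adjusted p = 6.75e-09), NDUFB6 by 0.41, SDHC by 0.27, COX7B by 0.26 and ATP5F1B by 0.24. The degraded IC50 array read highest for SDHC (11.61 against 11.18 to 11.24) and COX7B (11.60 against 11.32 to 11.35). It also did so for ATP5F1B (11.58 against 11.06 to 11.12). The falls of SDHC, COX7B and ATP5F1B were larger for including it. With GDC0941, NDUFA9 fell by 0.47 (limma adjusted p = 2.24e-06) and COX4I1 by 0.21 (adjusted p = 0.0297). ATP5MC2 rose by 0.42 with BEZ235, but its IC50 arrays read 10.49, 10.44, 9.28 and 10.35, and the call was lost without the degraded array at 9.28.

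Between compounds at the level named IC50, BKM120 and GDC0941 differed least. None of the 83 members was higher with BKM120 and 1 was lower, UQCRC1 at -0.26 (SE 0.058, limma adjusted p = 0.0193), where 0.455% of all genes were higher and 0.143% lower (0.598% in all). That call was lost without the first BKM120 array or the first, the second or the fourth GDC0941 array. The 95% intervals of the difference ran from -0.10 to 0.09 for ATP5PD, from -0.08 to 0.12 for NDUFS1, from -0.39 to 0.02 for NDUFAF5 and from -0.30 to 0.19 for SDHAF1. Differences within these bounds cannot be told from none with 4 arrays a group.

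BEZ235 at IC50 stood further from both. Against it, 11 members were higher and 13 lower with BKM120 (15.2% and 16.9% of all genes, 32.1% in all), and 15 and 2 without the degraded array, while quantile normalization gave 23 and 6. Leaving out the first or the second BKM120 array gave 15 and 12 calls in all. Against GDC0941, 5 members were higher and 11 lower with BEZ235 (18.6% and 15.5%, 34.1% in all), 1 and 11 without the degraded array, and 2 and 22 under quantile normalization. The clear cases were falls in the assembly factors and complex III: NDUFAF2 was lower with BEZ235 than with GDC0941, at -0.37 (SE 0.055, limma adjusted p = 2.98e-06), NDUFAF1 at -0.34 (adjusted p = 0.000345) and UQCRC1 at -0.39 (adjusted p = 2.98e-06). COX6B1, a subunit on the intermembrane side, was lower with BKM120 than with BEZ235, at -0.30 (limma adjusted p = 0.00602).

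At the level named IC90, more members differed than at IC50 for GDC0941 against each of the other compounds, but not for BKM120 against BEZ235. With BKM120 against GDC0941, none was higher and 15 lower (11.7% and 18.2% of all genes, 29.9% in all), and 29 were lower under quantile normalization. With BEZ235 against GDC0941, 3 were higher and 22 lower (23% and 20%, 42.9% in all), and 2 and 38 under quantile normalization. With BKM120 against BEZ235, 10 were higher and 12 lower (18.5% and 26.6%, 45.1% in all), and 19 and 10 under quantile normalization.

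SDHAF1 had the largest difference between BKM120 and BEZ235. BKM120 lay below BEZ235, at -1.04 (SE 0.119, limma adjusted p = 4.38e-09) and below GDC0941, at -0.50 (adjusted p = 0.00123), and BEZ235 lay above GDC0941 by 0.54 (adjusted p = 0.000327). The arrays of the 3 groups did not overlap for this gene. NDUFAF5 was lower with BEZ235 than with GDC0941 (-0.87, limma adjusted p = 7.6e-09) and higher with BKM120 than with BEZ235 (0.52, adjusted p = 6.56e-05), and NDUFAF1 gave -0.63 and 0.45. NDUFB6 was lower with BEZ235 than with GDC0941, at -0.58 (limma adjusted p = 1.45e-08), NDUFA3 at -0.54, UQCR10 at -0.42 and ATP5MC1 at -0.41. COX7A2L was higher with BEZ235 than with GDC0941 by 0.19 (limma adjusted p = 0.00582) and lower with BKM120 than with BEZ235, at -0.24 (adjusted p = 0.00052). SDHAF3 and NDUFAF6 were lower with BKM120 than with GDC0941, at -0.56 and -0.47.

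Within groups, the members also varied together from array to array, which is given as a description because arrays share labelling and scaling. After subtracting group means, the mean pairwise correlation over 40 arrays was 0.30 for all 83 members, 0.52 for complex III, 0.46 for complex IV, 0.42 for ATP synthase and 0.37 for complex I. It was 0.003 for the complex I assembly factors, 0.08 for complex II (-0.04 without the degraded array) and -0.06 for the complex II assembly factors. Over all 11865 tested genes it was 0.0079.

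Other genes of mitochondrial respiration were described by lists that the symbol rule does not hold. At the highest level of BKM120, BEZ235 and GDC0941 in turn, 0, 2 and 1 of 18 tested regulators of mitochondrial gene expression rose and 3, 6 and 5 fell. At these levels 17.2%, 32.8% and 25.5% of all tested genes rose and 17%, 24.9% and 18.2% fell, and these shares stand beside each list that follows. PPARGC1A, the coactivator PGC-1alpha, fell with BKM120 at IC90 by 1.05 (SE 0.115, limma adjusted p = 3.27e-09) and PPARGC1B by 0.91, while their changes with BEZ235 at max were -0.21 and -0.07 and were not called. GABPB1, a subunit of an ETS-family factor, fell with BEZ235 at max by 0.60 and with GDC0941 at max by 0.45, and ESRRA, a nuclear receptor of mitochondrial genes, rose by 0.43 with BEZ235 at max.

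Of 16 genes of cytochrome c and coenzyme Q, 2, 4 and 4 rose and 5, 8 and 7 fell. COQ8A, a kinase-like protein of coenzyme Q synthesis, rose by 0.99, 1.52 and 1.27 (limma adjusted p at most 6.33e-16), a larger change than any member showed in the same comparisons. Of 39 assembly factors with other symbols, 3, 9 and 5 rose and 10, 13 and 8 fell. SURF1, needed early in complex IV assembly, rose by 0.46, 0.77 and 0.62, and COA5, another factor of complex IV, rose by 0.38, 0.67 and 0.54. SCO2, which delivers copper to complex IV, fell by 0.61 with BKM120 at IC90.

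Of 23 genes of the citric acid cycle and pyruvate entry, 1, 2 and 3 rose and 8, 8 and 7 fell. PDK1, a kinase that inhibits pyruvate dehydrogenase, changed by -0.93, -1.01 and -0.83, and its relative PDK2 rose by 0.70, 0.93 and 0.88. OGDH, of the 2-oxoglutarate dehydrogenase complex, fell by 0.40, 0.73 and 0.42. Of 75 genes of the mitochondrial ribosome, 3, 15 and 7 rose and 14, 24 and 22 fell, and of 21 import genes 0, 3 and 1 rose and 7, 9 and 5 fell. TOMM40, the pore of the outer membrane, fell by 0.38, 0.67 and 0.58, and TIMM21, of the inner membrane translocase, fell by 0.41, 0.56 and 0.58.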

How the data were processed

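Total RNA of A2058 cells (50 ng per sample) was amplified, labelled with biotin and hybridised to 1 Affymetrix array per sample, giving 40 arrays in 10 groups of 4. The authors deposited linear intensity values, scaled to a trimmed mean of 150 on each array, as the values show, and made with MAS5, per the submitters' processing notes. The version is not given in the sources used here. Of 54675 probe sets, 41097 had 1 symbol, 1801 several and 11777 none, and 41043 of the first were matched to RefSeq. Each gene was represented by the probe set of highest mean log2(intensity + 16), and genes above the 40th percentile of that mean were tested. limma 3.58.1 in R 4.3.3 (lmFit, contrasts.fit, eBayes with trend) fitted 10 group means over all 40 arrays, with 30 residual degrees of freedom, and Benjamini-Hochberg adjustment ran over all 11865 genes within each of 18 comparisons. Intervals are at 95%. The model was tested on simulated data. Arrays give no read depth, and their number limits the precision.

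A member was named singly where it was called with groups that did not overlap (up to 4 in each direction in each role group, the largest changes first), was on a list of core subunits or of isoforms and regulators, or was called in 1 direction at all 3 levels of a compound or in 6 or more of the 9 treatments. Values of such a member elsewhere could be added. Of each pathway list, up to 4 called genes of the largest change were named. The members, lists and rules were chosen with earlier results of these data known. Replicate numbers did not pair the samples: deviations of same-numbered samples had a mean correlation of -0.01 over 180 pairs. Alternatives were pseudocounts of 1 and 64, other filters, quantile normalization, the mean over probe sets, 39 arrays (without the degraded BEZ235 array), only the 2 groups compared, a replicate block and leaving out each array in turn. Using cross-hybridising probe sets last was chosen after seeing the data. Probe sets with several symbols were left out of the tests.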

Additional observations from a re-analysis of the deposited data

Results flagged for a closer look

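Within groups of 4 arrays, single arrays stood far from the other 3. Chance alone gives such a gap in about 1 in 20 groups, and 5 of 90 groups of complex means and 22 of 213 groups of single members had one. For the means of role groups, these were ATP synthase with GDC0941 at IC90 (replicate 2, 10.681), complex II with BKM120 at IC50 (replicate 2, 10.6274) and BEZ235 at IC50 (replicate 3, 10.9632), the complex II assembly factors with BKM120 at IC30 (replicate 4, 7.912) and complex IV with GDC0941 at max (replicate 3, 11.3212).

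For single members, 9 of the arrays were replicate 3 of BEZ235 at IC50, the array of poor RNA quality: ATP5F1B (11.5776), ATP5MC2 (9.2824), ATP5PD (11.042), COX7B (11.6008), NDUFV3 (9.5801), SDHAF1 (8.3554), SDHAF3 (8.5584), SDHC (11.6069) and UQCRB (11.828). Others with BEZ235 were COX5B (11.1752) and UQCR10 (9.4413) on replicate 3 at IC90, and COX7B (replicate 2, 11.2386), NDUFA9 (replicate 1, 9.8589) and NDUFAF1 (replicate 4, 7.4854) at max. With BKM120 they were NDUFV1 at IC30 (replicate 4, 10.1941), UQCRC1 at IC50 (replicate 1, 9.4498), and COX7A2L (replicate 1, 10.7662) and NDUFAF6 (replicate 4, 8.0585) at IC90. With GDC0941 they were NDUFA9 at IC50 (replicate 1, 10.1311) and NDUFAF5 at IC90 (replicate 3, 7.8924). Under DMSO they were COX6B1 (replicate 2, 10.3782) and NDUFV3 (replicate 1, 9.7384).

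Probe sets that carry several symbols stood outside the tests of members, and some were called higher than DMSO (limma). The probe set shared by NDUFC2 and NDUFC2-KCTD14, for a complex I subunit, was higher by 0.4715 with BKM120 at IC90, by 0.2907, 0.3016 and 0.311 over the BEZ235 levels, and by 0.4368 with GDC0941 at max. Probe sets of NDUFS8 were higher by 0.2667 and 0.1908 with BKM120 at IC30, by 0.2566 with BKM120 at IC50 and by 0.156 with BEZ235 at IC50. With BEZ235 at IC50 the probe set of UQCRHL and UQCRH was higher by 0.2903 and that of RPL10 and NDUFS5 by 0.1951, and with GDC0941 at IC50 that of KCTD14 and NDUFC2-KCTD14 was higher by 0.2227.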

How the results depend on the processing

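Of 176 counts of called members under the alternatives other than leaving out each array in turn, 157 stayed within 1.5 times the main count. Quantile normalization gave 26 calls for BEZ235 at IC50 (47 in the main analysis), 15 for GDC0941 at IC90 (9), 2 for BKM120 against GDC0941 at IC50 (1), 29 for the same pair at IC90 (15) and 40 for BEZ235 against GDC0941 at IC90 (25). The mean over probe sets gave 28 for BEZ235 at IC50 and 6 for GDC0941 at IC50 (10), and no filter on dim genes gave 5 for the latter. Fitting 39 arrays, without the degraded BEZ235 array, gave 32 for BKM120 at IC30 (18), 19 for GDC0941 at IC50, 19 for GDC0941 at IC90 and 3 for BKM120 against GDC0941 at IC50. Fitting only the 2 groups compared gave 11 for BEZ235 at IC50, 15 for GDC0941 at IC90, 3 for BKM120 against BEZ235 at IC50 (24), 4 for BKM120 against GDC0941 at IC50, 2 for BEZ235 against GDC0941 at IC50 (16), 27 for BKM120 against GDC0941 at IC90 and 16 for BEZ235 max against IC50 (39), with fewer arrays behind the spread. For the other counts that moved, the cause was not tested.

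Leaving out 1 array at a time gave 6 to 29 calls for BKM120 at IC30, 5 to 12 at IC50 and 11 to 16 at IC90. It gave 32 to 51, 25 to 35 and 30 to 34 over the BEZ235 levels and 1 to 13, 7 to 16 and 11 to 23 over the GDC0941 levels. Between compounds at IC50 it gave 12 to 29 for BKM120 against BEZ235, 0 to 1 for BKM120 against GDC0941 and 12 to 22 for BEZ235 against GDC0941, and at IC90 18 to 23, 13 to 16 and 23 to 25. Between levels it gave 20 to 34 for BKM120, 28 to 46 for BEZ235 and 7 to 22 for GDC0941. The replicate block gave 16 calls for BKM120 at IC30, 47 for BEZ235 at IC50 and 8 for GDC0941 at IC50, and all 18 counts stayed within 1.5 times.

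Some named changes reversed. With cross-hybridising probe sets last, ATP5F1C came to -0.28 with BKM120 at IC30, -0.31 with BEZ235 at IC50 and -0.27 with GDC0941 at IC50. With the mean over probe sets, ATP5PD came to -0.00928 with BKM120 at IC50, UQCRB to -0.0580 with BKM120 at IC90 and -0.0225 with BEZ235 at max, ATP5MC3 to -0.000974 and SDHC to -0.00693 with BEZ235 at IC50, and NDUFA2 to -0.0356 with GDC0941 at max. Quantile normalization at BEZ235 IC50 gave -0.0542 for ATP5F1C, -0.0776 for ATP5MC3 and -0.0727 for COX5A. None of these reversed values was called (limma), and the cause was not tested. Of the 182 single changes, 91 kept direction and call under every alternative run. No molar concentration was given, so levels cannot be compared across compounds as doses, and RNA levels say nothing of respiration itself.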

Other observations

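Genes outside the respiratory chain were counted at the lower levels too. For the mitochondrial ribosome, at BKM120 IC30, 8 of 75 ribosomal genes rose and none fell, where 13.2% of all genes rose and 8.15% fell, and at IC90 3 rose and 14 fell, where 17.2% and 17% did. With GDC0941, 5 rose and none fell at IC50 (9.94% and 6.19% of all genes), and 7 rose and 22 fell at max (25.5% and 18.2%). Of 23 citric acid cycle and pyruvate genes, 4 rose and none fell at BKM120 IC30 and at GDC0941 IC50. The comparisons share the DMSO arrays.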
